A study of Mus musculus with 2 samples.

Results

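Lysyl oxidases and matricellular glycoproteins were measured in the ureters of mouse embryos that carried a Cre allele of Tbx18 together with floxed alleles of the T-box genes Tbx2 and Tbx3. The set held 10 genes. There were 5 lysyl oxidases (Lox, Loxl1, Loxl2, Loxl3 and Loxl4) and 5 glycoproteins that are secreted into the matrix (Fn1, Tnc, Postn, Sparc and Thbs2). Their probes were taken as every non-control probe whose gene name in both scanner files was one of these symbols. This gave 18 probes, 11 for the lysyl oxidases and 7 for the glycoproteins, out of 39429 probes on the array. All 18 were well above background in both genotypes on both arrays, so the filter on dim probes removed no member. The tested set held 29274 probes, which stood for 23419 genes.

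The comparison was between embryos called cDKO and control embryos of the NMRI strain at stage E18.5. The cDKO embryos were Tbx18(cre/+), Tbx2(fl/fl) and also Tbx3(fl/fl). Controls were Tbx18(+/+), with Tbx2(fl/?) and with Tbx3(fl/?), so both genotypes carried floxed alleles, and the Cre allele of Tbx18 was itself part of the difference between them. Total RNA of whole ureters was hybridised to 2 Agilent arrays of 2 colours, each of which held both genotypes. One array carried RNA of males with cDKO in the red dye, and the other RNA of females with cDKO in the green dye. Sex, dye orientation and replicate number cannot be told apart, and n = 2 ratios throughout. The number of embryos behind an RNA is not in the labels. The p-values rest on the spread between these arrays, mostly as shared over all probes. Cre recombination follows the Tbx18 gene, which is expressed in the undifferentiated mesenchyme around the ureteric epithelium.

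Lysyl oxidases are copper enzymes that oxidise lysine residues of collagens and elastin, and the aldehydes so formed join the fibres into an insoluble network. LOX itself is secreted as a proenzyme and is cleaved outside the cell by BMP1-type proteases. Fibronectin is a scaffold onto which collagen and procollagen-processing enzymes assemble. Tenascin-C, periostin, SPARC and thrombospondin-2 are matricellular proteins, which modulate how cells hold to the matrix and how fibrils form rather than bearing load. In the ureter the inner mesenchyme next to the epithelium gives rise to smooth muscle, and the outer mesenchyme to a fibroblast-rich adventitia.

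The probes are 60 bases long and lie on mm9 within the transcripts named in the files, hence in exons. Coding sequence and UTR were not assigned here because no annotation of that build was used. The sequences of 6 probes are shown because the probes of these 3 genes gave unlike values, which are described further on. The printed Loxl2 probes gave values like each other and unlike those of the brightest Loxl2 probe, which is not printed. Capitals mark the longest run of bases that the probe shares with any probe of another member.

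Loxl1, base 2075 of its transcript (chr9:58138570-58138629, minus strand): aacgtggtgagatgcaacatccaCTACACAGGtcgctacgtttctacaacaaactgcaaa

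Loxl1, base 1553 of its transcript (chr9:58145451-58145510, minus strand): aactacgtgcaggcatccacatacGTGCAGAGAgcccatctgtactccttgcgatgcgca

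Loxl2, base 2212 of its transcript (chr14:70090017-70090076, plus strand): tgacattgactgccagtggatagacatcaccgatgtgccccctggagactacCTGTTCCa

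Loxl2, base 2293 of its transcript (chr14:70092141-70092200, plus strand): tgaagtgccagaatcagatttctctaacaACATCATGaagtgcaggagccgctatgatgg

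Tnc, base 4602 of its transcript (chr4:63643728-63643787, minus strand): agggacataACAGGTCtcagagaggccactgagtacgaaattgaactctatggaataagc

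Tnc, base 2324 of its transcript (chr4:63674248-63675011, minus strand): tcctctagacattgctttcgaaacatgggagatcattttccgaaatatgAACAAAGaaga

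The second Tnc probe spans 764 bases of the genome and therefore crosses an intron. The closest pair among probes of different members was the first Loxl1 probe and the dimmer Lox probe, which had 31 identical bases over 51 overlapping ones, with a longest shared run of 9 bases. The next pair, of Loxl2 and Loxl3, had 26 of 54. GC content ran from 35.0% to 55.0% over the 18 probes.

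In each RNA, 72.1% to 81.6% of 43020 spots for genes exceeded background clearly, and the median signal was 12.1 to 17.0 times the local background. The ratios of the arrays correlated with Pearson r = 0.487 over genes, which are not independent replicates. In the female cDKO RNA the Y-linked genes Ddx3y and Eif2s3y gave signals of 359.6 and 491, which were 12.6% and 9.52% of those in the male cDKO RNA, while in female control RNA both stayed near background. The Y-linked genes Kdm5d and Uty, at 75.0 and 118 in male cDKO RNA, were not above background in female cDKO RNA (2.90 and 6.61). Xist read 918 in female cDKO and 957 in female control RNA. Female and cDKO therefore stand below for the labels on these RNAs, and results are given for each array. The genes named in the genotype were not lower in cDKO RNA. The mean log2 ratio was 0.74 ± 0.42 (SD) for Tbx2, 0.66 ± 0.16 for Tbx3 and 0.81 ± 0.0031 for Tbx18, with limma adjusted p of 0.0273, 0.0305 and 0.00778. A probe outside the deleted exons does not report the deletion, and whether these probes lie inside was not tested.

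Of the 10 genes, 2 rose in cDKO ureters and 0 fell. The 2 were Lox, which encodes the founding lysyl oxidase, and Fn1, which encodes fibronectin. Their levels were 2.50 and 2.15 times those in controls, while the other members had smaller ratios that did not pass the test. Among all genes 2.18% were called higher and 2.27% lower (limma, Benjamini-Hochberg adjusted p under 0.05). By the rule of at least 2-fold on both arrays, 1 member qualified, Lox, against 0.410% of all genes. On the male array alone 2 members reached 2-fold higher (1.19% of all genes), and on the female array alone 1 did (1.28% of all genes). All 10 genes had the same sign on both arrays with loess scaling, and all but Sparc and Postn with median centring. With loess, 8 were above 0 on both, compared with 31.7% of all genes, and 2 were below 0 on both, compared with 28.0% of all genes. The median of the members was 0.38 on the log2 scale, against 0.0045 for all genes.

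**Figure D1:**
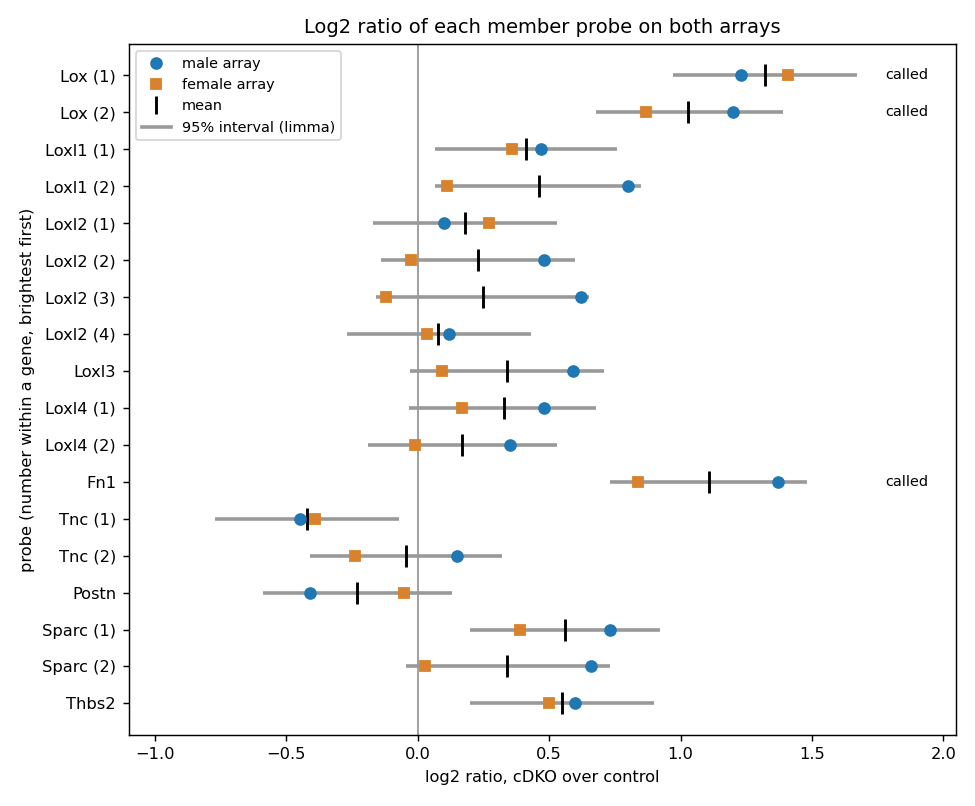
Log2 ratio of cDKO over control for each of the 18 probes, with 1 circle for the male array, 1 square for the female array, a tick at their mean and a bar for the 95% interval of limma. Both Lox probes and the Fn1 probe were called, with means between 1.03 and 1.32, and the means of the other 15 probes lie at 0.56 or lower.

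Lox had the highest mean ratio of the members. The processed signal of its brighter probe was 5389 in male control RNA and 12269 in male cDKO RNA, and 4219 and 10975 in the corresponding female RNAs. Both cDKO values lay above both control values. Signals were not scaled between arrays, so comparisons of signals across arrays, here and below, mix array and genotype. The test used the ratios within arrays. The log2 ratio was 1.23 in males and 1.41 in females. The mean was 1.32 ± 0.13 (SD, n = 2; 95% interval 0.97 to 1.67), a 2.50-fold higher level (limma adjusted p = 0.000112). This placed Lox at rank 84 of 23419 genes from the highest mean. The other Lox probe, at base 1531 of the transcript rather than 3524, read 3701 and 8357 in males and 2979 and 5382 in females. Its ratios were 1.20 and 0.87, with a mean of 1.03 ± 0.24 and an adjusted p of 0.00144 by limma. The probes thus gave male ratios within 0.03 of each other and female ratios 0.54 apart, and both were called.

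Loxl1, an oxidase known for its role in elastic fibre upkeep, did not pass the test. Its brighter probe read 15250.0 in male control and 23192 in male cDKO RNA, and 13085 and 16421 in female RNAs. The ratios of 0.47 and 0.36 gave a mean of 0.41 ± 0.083 (95% interval 0.066 to 0.76; limma adjusted p = 0.215). Both cDKO values exceeded both control values. The second probe, at base 1553, gave 0.80 in males and 0.11 in females. The means of the probes, 0.41 and 0.46, differed by 0.05, although the arrays disagreed on which probe was higher.

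Loxl2, whose product crosslinks basement membrane collagen IV, was represented by a probe that read 10889.9 and 12265 in male control and cDKO RNA and 8655 and 10107 in the female RNAs, so that control and cDKO values overlapped across arrays. The ratios of 0.10 and 0.27 had a mean of 0.18 ± 0.12 (95% interval -0.17 to 0.53; limma adjusted p = 0.687). The probes at bases 2212 and 2293, printed above, instead gave male ratios of 0.48 and 0.62 and female ratios of -0.024 and -0.12. On the male array these probes of Loxl2 thus ran from 0.10 to 0.62. A further probe named Loxl2 in the files lies on chromosome 2 rather than on 14, matched no entry of the RefSeq table and read no more than 35.4 in any RNA. Its ratios were 0.12 and 0.035, and its assignment to Loxl2 is uncertain.

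Loxl3 and Loxl4 were read at lower signals. Loxl3, needed for palate and spine development in mice, had signals of 697 and 1046 in males and of 649.7 and 705 in females. Its cDKO values did not overlap its control values. The ratios of 0.59 and 0.093 averaged 0.34 ± 0.35 (95% interval -0.031 to 0.71; limma adjusted p = 0.376). Loxl4, another oxidase with scavenger receptor domains, had signals of 219.5 and 344 in males and of 191 and 211 in females, which overlapped across arrays. The ratios were 0.48 and 0.17 (mean 0.33 ± 0.22; limma adjusted p = 0.380), and those of its second probe were 0.35 and -0.01. Over the 5 lysyl oxidases the median ratio was 0.34, with 1 called higher, and Lox differed from the other 4 in that its lower array value, 1.23, exceeded their highest array value over the representing probes, 0.59.

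**Figure D2:**
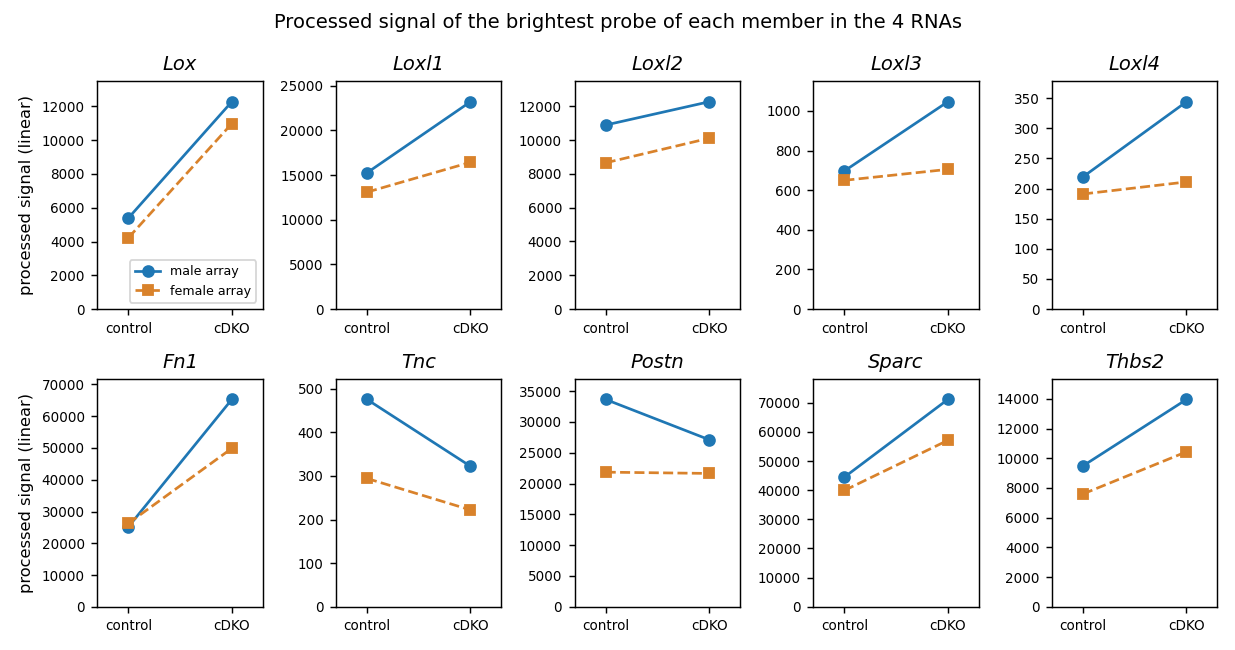
Processed signal (linear scale from 0) of the representing probe of each gene in control and cDKO RNA, with circles and solid lines for the male array and squares and dashed lines for the female array. Lox goes from 5389 to 12269 and from 4219 to 10975, while Tnc and Postn slope downwards on both arrays.

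Fn1 carried 1 probe, near the 3′ end of a long transcript. It read 25163 in male control and 65273 in male cDKO RNA, and 26282 and 49876 in female control and cDKO RNA. The control values lay close together and both cDKO values lay above them. The male ratio was 1.37 and the female ratio 0.84. Their mean was 1.11 ± 0.37 (95% interval 0.73 to 1.48), a 2.15-fold higher level (limma adjusted p = 0.00121). Fn1 stood at rank 141 of the 23419 genes. The mean was 1.15 with the processed signals and 1.11 with median centring, but the call was lost, at limma adjusted p of 0.0803 and 0.0730. Under median centring the male ratio was 2.10 and the female ratio 0.12. Hepatocytes make plasma fibronectin, and the summed signal of 14 liver markers in cDKO over control RNA was 0.722 in males and 4.40 in females. The part of liver RNA in the Fn1 values was not tested.

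Sparc encodes a collagen-binding glycoprotein, and Thbs2 encodes a thrombospondin that limits matrix protease activity and fibril thickness. Sparc read 44469 and 71100.2 in males and 39913 and 57076 in females, with no overlap of the genotypes. The ratios of 0.73 and 0.39 gave a mean of 0.56 ± 0.24 (95% interval 0.20 to 0.92), a 1.47-fold difference with an adjusted p of 0.0854 by limma. A second Sparc probe, nearer the 3′ end, gave 0.66 in males and 0.027 in females. Thbs2 read 9490.4 and 13959 in males and 7600.4 and 10435 in females, and its cDKO values did not overlap its control values. Its ratios of 0.60 and 0.50 had a mean of 0.55 ± 0.071 (95% interval 0.20 to 0.90; limma adjusted p = 0.0797). Neither gene was called by the main test. Their unadjusted p were 0.00475 and 0.00422, and 16.0% of all genes had an unadjusted p under 0.05. With a variance that followed intensity, both were called, at adjusted p of 0.0135 and 0.0127.

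Tnc and Postn were the 2 members with ratios below 0. Tnc, which encodes the anti-adhesive glycoprotein tenascin-C, read 475 and 322 in male control and cDKO RNA and 294 and 222 in the female RNAs. The female control value lay below the male cDKO value, but within each array cDKO read lower than control. The ratios were -0.45 and -0.39, with a mean of -0.42 ± 0.043 (95% interval -0.77 to -0.072), or 1.34-fold more in control RNA, and the limma adjusted p was 0.207. The other Tnc probe was dim, at 24.7 to 58.7, and pointed in opposite directions, with 0.15 in males and -0.24 in females. Postn encodes periostin, which promotes the processing of LOX and the crosslinking of collagen. Its signals were 33632 and 27109 in males and 21841 and 21635 in females, with overlap across arrays. The male ratio was -0.41 and the female ratio -0.054, with a mean of -0.23 ± 0.25 (95% interval -0.59 to 0.13; limma adjusted p = 0.581). Within these glycoproteins the range of means thus ran from -0.42 for Tnc to 1.11 for Fn1, with a median of 0.55.

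**Figure D3:**
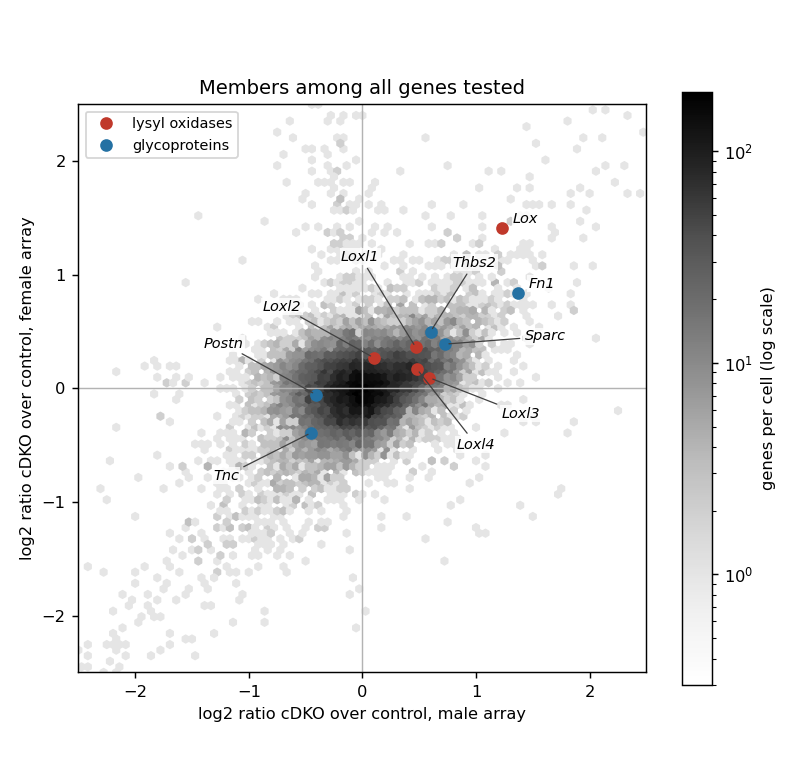
Log2 ratio of cDKO over control on the male array (horizontal) and the female array (vertical), with all genes as hexagonal cells shaded by gene number on a log scale, the lysyl oxidases in red and the glycoproteins in blue. Lox and Fn1 lie at the upper right edge of the cloud, and 91 genes outside ±2.5 on either axis are not drawn.

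The order of the members by mean ratio was Lox, Fn1, Sparc, Thbs2, Loxl1, Loxl3, Loxl4, Loxl2, Postn and Tnc. The 95% intervals of Lox (0.97 to 1.67) and Fn1 (0.73 to 1.48) overlapped, as did those of Fn1 and Sparc. From Sparc at 0.56 to Loxl2 at 0.18, each neighbour lay within the interval of the next, so their order was not resolved. Of all genes, 99.6% had a lower mean than Lox, 96.4% than Sparc, 92.5% than Loxl1, 76.8% than Loxl2, 13.8% than Postn and 4.85% than Tnc. With 1 probe a gene, the ratio on the male array exceeded that on the female array for 6 of the 10 members (60%) and for 54.0% of all genes, so the members' share was near that of all genes. The exceptions were Lox, Loxl2, Tnc and Postn. Over the 18 member probes the male ratio was the higher for 14 (77.8%), so the share depended on which probes were counted.

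Agreement between probes differed by array. In 6 members with more than 1 probe, the brightest probe gave the highest female ratio in 5 and the highest male ratio in 3. The span over probes on the female array was 0.54 for Lox, 0.36 for Sparc and 0.39 for Loxl2, and on the male array it was 0.03, 0.07 and 0.52. In 3 of the 6 genes, Lox, Loxl1 and Sparc, every probe had the sign of the brightest one on both arrays. Of the 18 probes, 4 pointed in opposite directions on the arrays, and these were 2 probes of Loxl2 and 1 each of Loxl4 and Tnc. With 1 probe a gene, 0 of the 10 members did so, beside 40.3% of all genes.

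For Sparc, Postn and Loxl1, the scaling within arrays moved the values of both single arrays more than their mean. This did not hold for every member. For Lox the mean moved from 1.32 with loess to 1.50 with median centring, and the female ratio from 1.41 to 1.26. With loess, the Sparc ratios were 0.73 and 0.39. With median centring in its place they became 1.50 and -0.42, and the mean stayed near, at 0.54. Postn changed from -0.41 and -0.054 to 0.24 and -0.54, and Loxl1 from 0.47 and 0.36 to 1.06 and 0.0036. Lox was above 1 on both arrays in each case, with 1.74 and 1.26 under median centring and 1.19 and 1.38 with the processed signals of the scanner program. The adjusted p of Lox was 0.00133 and 0.0446 under these settings, and it was the 1 member called higher, while 0.696% and 0.572% of all genes were. Its second probe had an adjusted p of 0.0228 with median centring and 0.0954 with processed signals. The median of all genes was 0.066 with median centring. The signs of the single-array values of Sparc (female) and Postn (male) thus turned with the scaling.

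**Figure D4:**
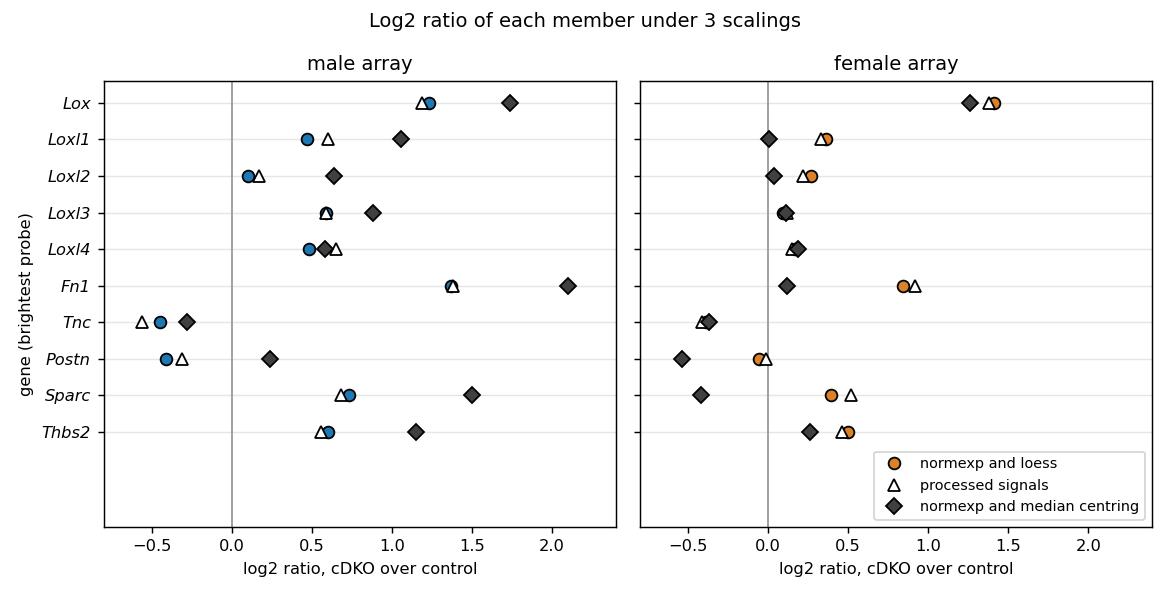
Log2 ratio of cDKO over control of the representing probe of each gene on the male array (left) and the female array (right) under 3 scalings, with coloured circles for normexp and loess, open triangles for processed signals and dark diamonds for median centring. The diamonds lie to the right of the circles for all 10 genes on the male array and to the left for 7 of them on the female array, and Lox lies above 1 throughout.

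Genes that prepare lysyl oxidases or supply their copper were described as a list of 11, of which 9 were measured. In this list 3 rose, 0 fell and 6 did not pass the test, a share of 33.3% beside 4.45% of all genes called in either direction. The median was 0.47, and it was 0.14 with no filter on dim probes, which adds the dim genes of the list, and 0.32 on the female array alone. Pcolce, which encodes an enhancer of the procollagen C-proteinase, had ratios of 1.20 and 0.58 (mean 0.89 ± 0.43; limma adjusted p = 0.00816). Fbln5, whose product fibulin-5 brings lysyl oxidases to elastin, had 0.80 and 0.98 (mean 0.89 ± 0.12; limma adjusted p = 0.00391). Fmod, which encodes the collagen-binding proteoglycan fibromodulin, had 0.76 and 0.79 (mean 0.78 ± 0.022; limma adjusted p = 0.0100). The protease gene Bmp1 that cleaves the LOX proenzyme gave 0.027 and 0.26, and the copper carriers Atp7a, Atox1 and Slc31a1 had means of -0.08, -0.016 and 0.13, none of which was called.

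Enzymes and chaperones that modify or fold collagen before it is crosslinked numbered 17, all measured. Of these 1 rose (5.88%), 0 fell and 16 were not called, beside 4.45% of all genes called in either direction. Fkbp10, a prolyl isomerase of the endoplasmic reticulum needed for collagen crosslinks, had ratios of 0.80 and 0.57 (mean 0.69 ± 0.16; limma adjusted p = 0.0253). The list had a median of 0.33 (0.49 in males and 0.18 in females), with 14 of 17 above 0 on both arrays and 3 below 0 on both. The collagen chaperone gene Serpinh1 had a mean of 0.51 ± 0.21 (limma adjusted p = 0.117). Plod2, which encodes the lysyl hydroxylase of collagen telopeptides, had -1.08 in males and -0.068 in females.

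Other matricellular and adhesive glycoproteins were a list of 26 with 22 measured, of which 4 rose (18.2%), 0 fell and 18 did not pass. Of all genes, 4.45% were called in either direction. Smoc1, a relative of Sparc found at basement membranes, had 0.98 and 0.84 (mean 0.91 ± 0.10; limma adjusted p = 0.00323). Nid2, which encodes the basement membrane linker nidogen-2, had 0.83 and 0.68. Spock2, a testican proteoglycan gene, had 0.86 and 0.61, and Ccn3, of the CCN family, had 0.74 and 0.60. The adjusted p of these by limma were 0.0125, 0.0164 and 0.0289. Sparcl1, the nearest relative of Sparc, had -0.47 and -0.57 (limma adjusted p = 0.102), so that this pair of related genes had ratios of opposite sign on both arrays. Thbs1, the nearest relative of Thbs2, had 0.33 and 0.18.

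Receptors for these glycoproteins were 15 genes, all measured, with a median of 0.059. The sign of this median turned with the array and it moved with the scaling, being -0.16 in males, 0.013 in females and 0.25 with median centring. Among them 0 rose, 1 fell and 14 did not pass, so 6.67% were called, beside 4.45% of all genes. Itga4, an integrin subunit that binds fibronectin, had ratios of -0.82 and -0.52 (mean -0.67 ± 0.21; limma adjusted p = 0.0310). Itga5, the other classical fibronectin subunit, had 0.73 and -0.036, and its partner Itgb1 had -0.65 and 0.03. Over the 4 lists together, 8 genes rose and 1 fell, and with processed signals or with median centring 0 were called in either direction.

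**Figure D5:**
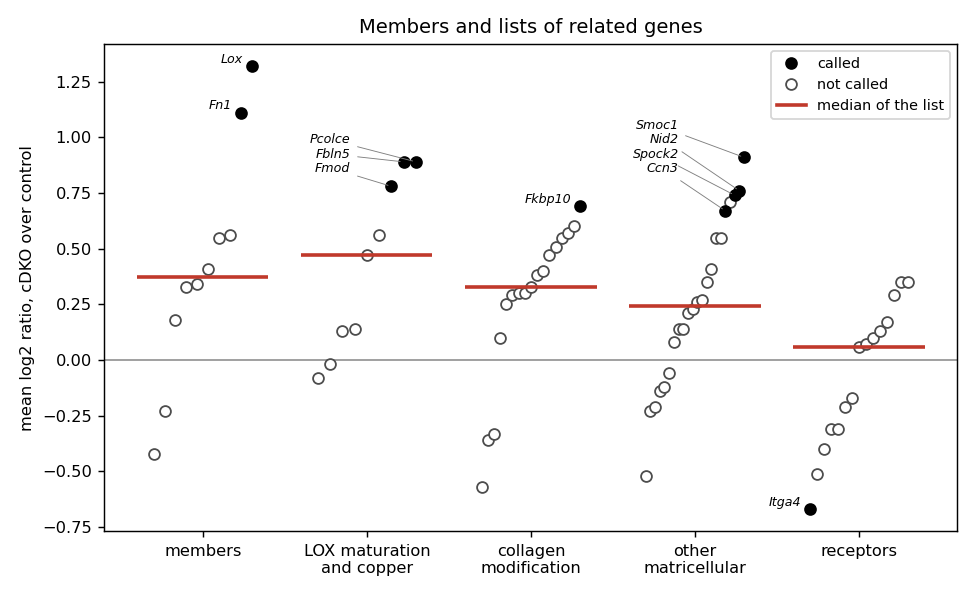
Mean log2 ratio of cDKO over control (vertical) of each measured gene in the members and in 4 lists of related genes (horizontal), with filled points for called genes, open points for the others and a red line at the median of each list. The medians are 0.38, 0.47, 0.33, 0.24 and 0.059 from left to right, and the 1 called point below 0 is Itga4.

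Markers of fibroblasts and of muscle differed between the genotypes. For the counts of called markers here and below, 2.18% of all genes were called higher and 2.27% lower. In bulk RNA, fewer cells of a type and less RNA per cell cannot be told apart. Of 12 fibroblast and adventitia markers, 6 rose, and their summed processed signal went from 290655 in male control to 545693 in male cDKO RNA and from 253083 to 474011 in female RNAs, which is 1.88 and 1.87 times. Col1a2 had 1.45 and 0.99 (mean 1.22 ± 0.33; limma adjusted p = 0.000432), Col1a1 had 1.87 and 0.67, and Dcn, the brightest of the list, had 0.79 and 0.89. Of the 6 calls, 1 (Col1a2) was kept with processed signals and 2 (Col1a1 and Col1a2) with median centring. Others of the list were not called and had lower ratios, with -0.33 and -0.17 for Dpt, 0.042 and -0.61 for Ly6a and 0.44 and -0.12 for Thy1. All 12 were well above background in every RNA. Lox was 2.50-fold and Fn1 2.15-fold higher in the same RNAs. The part of fibroblasts in these results was not tested.

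Of 11 smooth muscle markers, all well above background in every RNA, 10 fell, with summed signals of 706016 and 413532 in control and 123259.8 and 73745 in cDKO RNA, or 0.175 and 0.178 times. Synpo2 had the lowest mean, -4.45 ± 0.37 (limma adjusted p = 8.49e-10), and Acta2, the smooth muscle actin gene and the brightest, had -2.65 ± 0.23. Of the 10 calls, 9 were kept with processed signals and 9 with median centring. Of 11 measured skeletal and cardiac muscle markers 8 fell and 0 rose, with sums of 0.142 and 0.152 times, and Myog was not above background in any RNA. The 14 urothelium markers, 0 of which were called, had sums of 1.23 and 1.22 times.

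Kidney and liver markers differed between arrays. Of 12 measured kidney markers 9 rose and 0 fell, and 3 of these calls were kept with processed signals and 7 with median centring. The sum over the 15 listed went from 6622 to 16739 on the male array, 2.53 times, and from 7547 to 8529 on the female array, 1.13 times. Lox had log2 ratios of 1.23 in males and 1.41 in females, and Fn1 had 1.37 and 0.84. Whether kidney RNA contributed to these values was not tested. Of 14 measured liver markers 1 rose, and the sums were 49836 and 35966 in males and 29873 and 131431 in females. Markers of cartilage, bone and tendon (4 rose and 1 fell of 12) had sums of 1.83 and 1.28 times, and those of endothelium (3 rose of 12) 1.32 and 1.22 times. Sums of blood and macrophage markers (1 rose of 11) were 1.57 and 1.33 times. Nerve and glia markers (0 called of 8) gave 1.09 and 0.965 times, and mesothelium and adipose markers (0 called of 6) 1.06 and 1.00 times. With processed signals 6 of the 8 calls among skeletal and cardiac muscle markers were kept and 0 of those among markers of skeleton and tendon, endothelium, blood and liver. With median centring 6, 2, 1, 0 and 0 were kept, in the same order. The part of these cell types in the values of the members was not tested.

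The genes whose pair of ratios lay nearest to that of Lox, by Euclidean distance over 2 arrays among 15006 genes well above background in every RNA, were Gabrg3, Myrip, Sprn and AI593442. Gabrg3 had 1.25 and 1.41, at a distance of 0.0187. Myrip had 1.30 and 1.45, Sprn 1.37 and 1.50, and AI593442 1.07 and 1.41, at distances of 0.0741, 0.157 and 0.165. With 2 points a gene, such likeness says only that the ratios were of like size.

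Promoter windows were at hand for 5 of the members (Loxl4, Postn, Sparc, Thbs2 and Tnc), in 7 windows from 250 bases before to 50 bases after the RefSeq start (GRCm38.p6). The T-box motif AGGTGTGA, searched on both strands, was in 0 of the 7 and in 1.28% of 32851 windows of all genes. Its core GGTGTG, which lies inside that motif, was in 0 of the 7 and in 19% of all windows. These counts describe the letters of those windows.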

How the data were processed

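Images were quantified by the authors with Agilent Feature Extraction 10.7.3.1, per the submitters' processing notes and the file headers. The deposited files hold, for each channel, a mean spot intensity, a median local background intensity and a processed signal intensity, which per the file headers was background-subtracted and dye-normalized. The deposited log10 ratio was red over green. It was used to check the direction of the ratios. The value table that the authors deposited is a score with no stated scale. It matched a signed fold change, cDKO over control, of the processed signals after floors of 26.9 (male) and 20.4 (female), within 0.001 log2 for 100% of 44397 values. Its median was 1 in both columns.

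Background was corrected by normexp (offset 50) on mean intensities, with loess scaling of each array, in limma 3.58.1 and R 4.3.3. Control spots had weight 0 and 272 (male) and 226 (female) outlier spots were left out. The filter kept probes that 1 genotype's RNA showed well above background on both arrays. Signals printed are processed signals, and ratios are log2 of cDKO over control. Their mean was tested against 0 with limma (two-sided, 1 residual and 13.9 prior degrees of freedom), with Benjamini-Hochberg adjustment over 29274 probes and a threshold of 0.05. The p-values therefore rest mostly on a spread shared over probes. The brightest kept probe represented a gene. Symbols came from RefSeq (GRCm38.p6) by accession for 26412 probes and from the files for 13017. Both arrays came from 1 slide and 1 scan. The number of arrays limits the precision.

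The members and lists were chosen with earlier results of these data known. Named are all member probes, Tbx2, Tbx3, Tbx18, the sex-linked genes, up to 4 called genes of each related list, up to 3 called markers and the brightest of a marker list, and the 4 genes nearest to Lox. Uncalled genes of the related lists were named for their role after their values were seen. Alternatives were the processed signals, offset 0, median centring, Aquantile, other filters, an intensity trend, robust eBayes, the mean of a gene's probes, the value table, a 2-fold rule and each array alone.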

Additional observations from a re-analysis of the deposited data

Results flagged for a closer look

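The probes below had a male ratio above 0 and a female ratio below 0 (log2, cDKO over control). The difference between the arrays was not tested, since each sex has 1 array. With 1 probe a gene, 40.3% of all genes also had opposite signs. The Loxl2 probe at base 2212 gave 0.48 in males and -0.024 in females. The Loxl2 probe at base 2293 gave 0.62 and -0.12. The second Loxl4 probe gave 0.35 and -0.01, and the dim Tnc probe at base 2324 gave 0.15 and -0.24. In each of these genes the brightest probe had 1 sign on both arrays.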

How the results depend on the processing

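The main counts were 511 genes higher and 531 lower, 2 members higher, and over the related lists 8 genes higher and 1 lower. Processed signals gave 134 and 209 genes, 1 member, and 0 and 0 list genes. Median centring gave 163 and 157 genes, 1 member, and 0 and 0 list genes. An intensity trend gave 936 genes higher, 4 members, and 17 and 2 list genes. The deposited value table gave 0 and 0 genes, 0 members, and 0 and 0 list genes, with 2434 genes at an unadjusted p under 0.05 by limma. The list gene called lower was lost (0 lower) with offset 0 and with no filter on dim probes. At least 2-fold on both arrays were 96 and 170 genes and 1 member. With 1 array left out no test is possible, so genes at least 2-fold on the other array were counted, a choice made after seeing the data. This gave 299 (without the male array) and 278 (without the female array) genes higher, 274 and 322 lower, 1 and 2 members higher, 1 and 2 list genes higher, and 0 and 1 lower. Why these counts differ was not tested. Robust eBayes, the filter on both RNAs and the mean of a gene's probes left each count within 1.5 times of the main one. Aquantile after loess does not alter the ratios within arrays, so its counts equalled the main ones by construction.

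Among single members no mean changed sign under the 12 settings, single arrays with loess included. Aquantile, the other filters, the intensity trend and robust eBayes used the same ratios of each member as the main fit. Their means were therefore the same by construction. Under median centring the single-array signs of Sparc (female) and Postn (male) did turn. Lox ranged from 1.18 to 1.50 and Fn1 from 0.84 to 1.37. Lox was not called from the value table (adjusted p = 0.222), and Fn1 was not called there (adjusted p = 0.318), with processed signals or with median centring. Sparc and Thbs2 were called with the intensity trend. Each array is a ratio of cDKO over control within a replicate, so the main test already pairs the genotypes. The dim Tnc probe had a male ratio of 0.51 with processed signals and 0.15 with normexp, and the cause was not tested.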
